A study of Sus scrofa domesticus with 150 samples.

Results

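The genes described here are 10 that build the cornified skin barrier, ALOX12B, ALOXE3, CERS3, ELOVL4, ABCA12, TGM1, TGM3, TGM5, SPINK5 and CASP14 (8 enzymes, the lipid transporter ABCA12 and the protease inhibitor SPINK5), followed through the healing of skin wounds in pigs. They were chosen by name: each entry of the count table whose symbol, from the table or from its protein match, is one of these 10. This gave 12 of the 30461 entries, since 3 entries carry the symbol CASP14.

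Gene counts were deposited for 150 samples of poly-A selected RNA from 6 domestic pigs, animals 1323 to 1328. All were Yorkshire-mix females with full-thickness circular excisional wounds on the back, dressed with Telfa Clear and Tegaderm and given no treatment other than a topical antibiotic after a biopsy. On day 0, the day of wounding, 1 sample of the whole excised skin came from each animal (n = 6), with no edge or center label. Afterwards 72 wounds were each sampled on 1 of 14 days, with a biopsy of the edge and another of the center. In comparisons with day 0, wounding and the kind of sample (whole excised skin or biopsy) thus cannot be told apart. Animals 1323 to 1325 were sampled on days 1, 3, 5, 7, 11, 15 and 21 and animals 1326 to 1328 on days 2, 4, 6, 9, 13, 16 and 19, so a single day cannot be told apart from its 3 animals. There were 6 wounds on each of the first 10 days and 3 on each of days 15, 16, 19 and 21. The days were joined into 5 phases that each hold both sets of animals: days 1 to 4 (24 wounds), days 5 to 9 (24), days 11 and 13 (12), days 15 and 16 (6) and days 19 and 21 (6).

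The water barrier of skin forms as keratinocytes move up from the basal layer and turn into the flat, dead cells of the cornified layer. Lipids made in the upper living layers are packed into lamellar granules and released between these cells, and ceramides carrying very long fatty acids are among the main ones. At the same time transglutaminases cross-link proteins into an envelope under the cell membrane, and proteases, held in check by inhibitors, cut the proteins of the cornified cells and their junctions. In a full-thickness wound the epidermis of the center is gone, and it is rebuilt by keratinocytes that move in from the edge. Inherited loss of many of these genes gives ichthyosis or a related scaling skin disease.

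The entries lie on 11 contigs of the annotation that the files use, and only ALOX12B (ENSSSCG00025050217, contig LUXX01062832.1, 1039983 to 1050413, minus strand) and ALOXE3 (ENSSSCG00025050576, the same contig, 1057283 to 1079397, minus strand) are neighbours. The entries of ALOX12B, ALOXE3, ABCA12, TGM1, TGM3 and SPINK5 have their symbol from a protein match only. CASP14 is used below for ENSSSCG00025026093, which the table itself names CASP14. A second entry, ENSSSCG00025042270, matches the CASP14 protein but has no protein domain in the table. The third, ENSSSCG00025011450, never had more than 7 counts in a sample and did not pass the filter on low counts, so 11 of the 12 entries were tested. TGM1 (ENSSSCG00025076753) overlaps RABGGTA on the same strand over 6148 bases, and RABGGTA was at most 0.59 on the log2(1 + CPM) scale in any sample. SPINK5 (ENSSSCG00025051689) overlaps an unnamed gene on the opposite strand over 9495 bases, which reached 2.42. Whether reads were counted by strand is not given in the sources used here, so reads of overlapping genes cannot be told apart. The levels and differences of TGM1 and SPINK5 below could thus include reads of the overlapping gene. The low level of RABGGTA does not settle this, and it was not tested.

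Total counts ranged from 13133379 to 24895572 per sample. Markers of suprabasal keratinocytes (KRT1, KRT10, DSG1, DSC1 and KRTDAP) were found in day 0 skin. Their median summed level over the 6 samples was 38550 CPM (counts scaled to a common total per sample), so epidermis was present. The edge samples of days 1 to 4 had a median of 33380 CPM, so these markers do not tell day 0 skin from wound edge. Some libraries stood apart from their replicates: day 2 center animal 1326 wound L, day 3 center animal 1324 wound G, day 3 edge animal 1325 wound G, day 5 edge animal 1325 wound K, day 6 center animal 1328 wound B, day 9 center animal 1328 wound E and day 11 center animal 1323 wound C. These 7 were known from earlier results of these data, and day 1 center animal 1325 wound A was added after the values of the barrier genes were seen. Several results below are given with and without them.

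In intact skin all 10 genes were expressed. Levels of different genes are compared here only per length, as the deposited FPKM (fragments scaled by gene length and by the sample's total). SPINK5 was the highest, with 150.3, 196.6 and 295.8 FPKM as the lowest, median and highest of the 6 day 0 samples, followed by TGM3 with 110.8, 163.1 and 215.1. The medians were 85.3 for CASP14, 79.2 for ELOVL4, 42.6 for ALOX12B, 32.0 for CERS3, 26.4 for ALOXE3, 17.5 for TGM5, 17.2 for TGM1 and 13.3 for ABCA12. Each gene overlapped in range with the next in this order. The other CASP14 entry, ENSSSCG00025042270, had a median of 1.65 FPKM.

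From day 1 to day 13, 9 of the 10 genes had most of their expression at the wound edge and little in the center. TGM3 did not follow them. The other 9 genes were higher at the edge than in the center on days 1 to 4 by between 3.36 (TGM1) and 6.17 (ABCA12) on the log2 scale, beside 29% of all 17916 genes tested that were higher there. Entry ENSSSCG00025042270 was the only member that was lower at the edge in this phase, by 0.47 ± 0.10 (SE) with adjusted p = 3.62e-05, beside 30.3% of all genes. Adjusted p come from the quasi-likelihood test of edgeR, corrected over all genes by the Benjamini-Hochberg method, and 0.05 was the threshold.

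On days 5 to 9 the same 9 genes were higher at the edge, beside 28.2% of all genes, by 3.91 (TGM1) to 7.90 (CASP14), and entry ENSSSCG00025042270 was lower, beside 26.2%. On days 11 and 13 the 9 were again higher, beside 24.1%, by 2.43 (TGM1) to 5.55 (CASP14), and ENSSSCG00025042270 was lower, beside 21.8%. On days 15 and 16, 7 genes were higher, beside 17.2%, and ENSSSCG00025042270 was lower, beside 17%. On days 19 and 21 edgeR called 0 members higher, beside 0.0558% of all genes, and 0 lower, beside 0.0167%. No member was below 0.05 before adjustment in that last phase and DESeq2 called 0. The median difference over the 11 tested entries was 5.05, 5.64, 3.73, 2.28 and 0.44 in the 5 phases, while the median over all genes lay between -0.03 and 0.02.

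**Figure D1:**
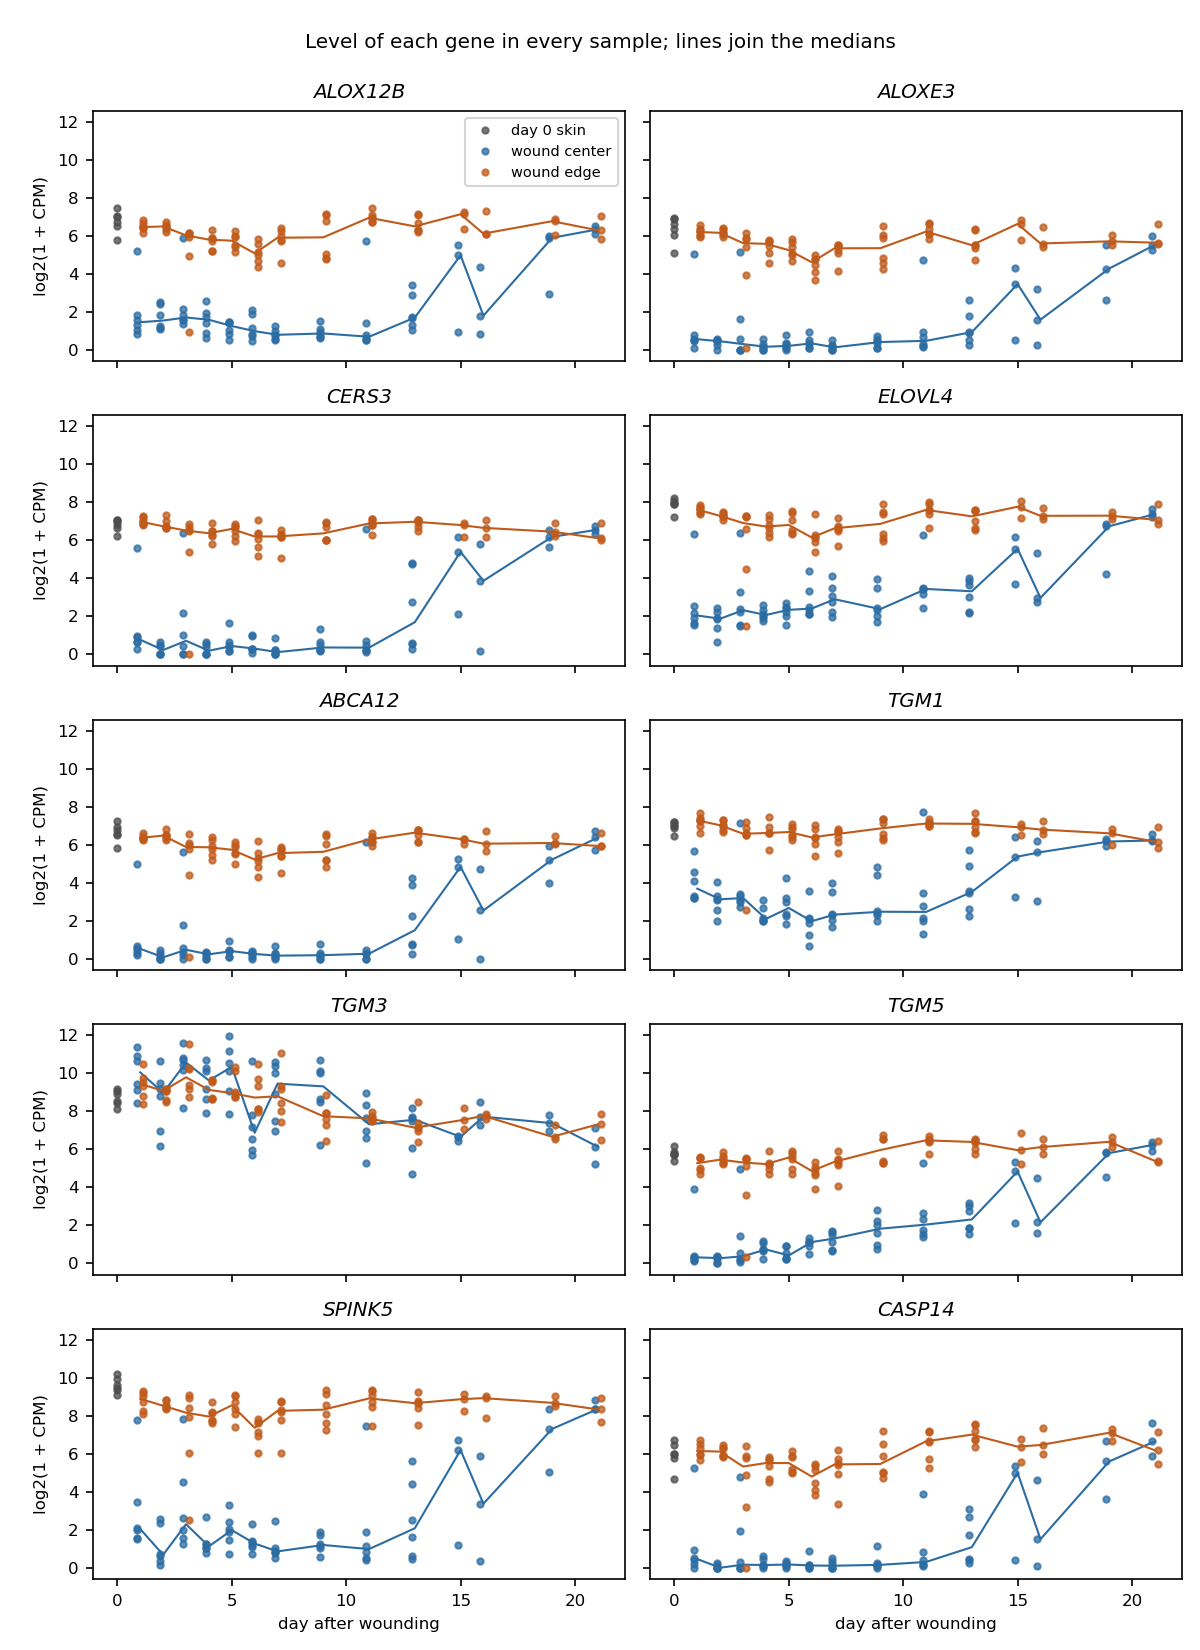
Level of each of the 10 genes, as log2(1 + CPM), against the day after wounding, with 1 point per sample for day 0 skin, wound edge and wound center and lines through the edge and center medians. In 9 panels the medians stand apart from day 1 to day 13, with single samples of the other location's level on days 1, 3 and 11, and come near each other on days 19 and 21, while in the TGM3 panel edge and center points overlap on every day except day 15.

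Counted by day, the same 9 genes were higher at the edge on each of days 1, 2, 4, 5, 6, 7, 9, 11 and 13. Only ALOXE3, ELOVL4, TGM5 and CASP14 passed on day 3, which holds 2 of the libraries that stood apart. All 9 passed on that day without the 7 libraries and with the wound as a block, and 0 did with the wounds of an animal summed or with the day fitted alone. On day 16 the genes higher at the edge were ALOX12B, ALOXE3, ELOVL4, TGM5, SPINK5 and CASP14. On days 15, 19 and 21 edgeR called 0 members higher, beside 1250, 0 and 3 of all 17916 genes. Before adjustment 4, 0 and 0 were below 0.05 on those days. DESeq2 called 1, 0 and 0, and the fit with the wound as a block called 4, 0 and 0. In all, 91 of 154 pairs of entry and day were higher at the edge, beside 13% of all gene and day pairs, and 3 pairs were lower (TGM3 on day 9 and ENSSSCG00025042270 on days 1 and 11), beside 9.98%.

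The 2 lipoxygenases act in sequence on the ceramides of the barrier. ALOX12B oxidizes their linoleate, and ALOXE3 converts the product. ALOX12B was at 5.78, 6.84 and 7.44 (lowest, median and highest of 6) on the log2(1 + CPM) scale in day 0 skin. On days 1 to 4 it was at 0.62, 1.57 and 5.89 in the 24 center samples and at 0.93, 6.18 and 6.82 in the 24 edge samples. The groups overlapped at their ends, where the center maximum and the edge minimum are both day 3 libraries that stood apart. ALOXE3 was at 5.09, 6.50 and 6.93 in day 0 skin, and on days 1 to 4 at 0.00, 0.44 and 5.15 in the center and 0.07, 5.94 and 6.56 at the edge. The edge minus center difference on days 1 to 4 was 3.91 ± 0.39 (SE) for ALOX12B, with adjusted p = 1.63e-16 in edgeR, and 5.62 ± 0.50 for ALOXE3, with adjusted p = 3.29e-19. ALOX12B was higher at the edge in 70 of the 72 wounds and ALOXE3 in 71. Of the center samples of days 1 to 4, 9 had 3 counts of ALOXE3 or fewer, and its fold changes there depend on the small count that edgeR adds.

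ELOVL4 lengthens fatty acids to the ultra-long chains of skin ceramides, and CERS3 is the ceramide synthase that uses them. On days 1 to 4 the center samples were at 0.64, 2.06 and 6.37 for ELOVL4 and at 0.00, 0.47 and 6.37 for CERS3, while the edge samples were at 1.47, 7.25 and 7.84 for ELOVL4 and at 0.00, 6.68 and 7.31 for CERS3. Most edge samples were thus near intact skin and most center samples far below it. In day 0 skin the medians were 7.93 for ELOVL4 and 6.86 for CERS3. The edge minus center difference on days 1 to 4 was 4.31 ± 0.35 for ELOVL4, with adjusted p = 1.4e-21 in edgeR, and 5.99 ± 0.58 for CERS3, with adjusted p = 3.91e-17. CERS3 had 3 counts or fewer in 9 of these 24 center samples and in 12 of the 24 of days 5 to 9. ELOVL4 was above 3 counts in every sample. Of the 72 wounds, 69 had more ELOVL4 and 68 more CERS3 at the edge.

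ABCA12 carries glucosylceramides into the lamellar granules. Its level in day 0 skin was 5.81, 6.67 and 7.26, and on days 1 to 4 it was at 0.00, 0.29 and 5.59 in the center and at 0.07, 6.28 and 6.80 at the edge. On days 5 to 9 the 2 locations did not overlap, with at most 0.95 in the center and at least 4.29 at the edge. It was higher at the edge by 6.17 ± 0.57 on days 1 to 4, with adjusted p = 2.42e-18 in edgeR, and 7.75 ± 0.62 on days 5 to 9, with adjusted p = 3.15e-22. The center held 3 counts or fewer of ABCA12 in 10 of 24 samples on days 1 to 4 and in 14 of 24 on days 5 to 9.

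The transglutaminases cross-link the proteins of the cornified envelope. TGM1 is the membrane-bound enzyme that also attaches lipids to the envelope, while TGM3 is best known from the upper epidermis and the hair follicle and TGM5 from the upper epidermis. TGM1 and TGM5 followed the lipid genes. TGM1 was at 6.47, 7.01 and 7.20 in day 0 skin, and on days 1 to 4 at 1.97, 3.12 and 7.13 in the center and at 2.58, 6.90 and 7.68 at the edge. It differed between edge and center by 3.36 ± 0.34 (adjusted p = 3.09e-16 in edgeR). TGM5 was at 5.40, 5.75 and 6.15 in day 0 skin, and on days 1 to 4 at 0.00, 0.34 and 4.97 in the center and at 0.32, 5.29 and 5.92 at the edge. Its difference was 5.05 ± 0.41, with adjusted p = 2.21e-21.

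TGM3 was found in the center in every phase, with medians from 9.79 on days 1 to 4 down to 6.97 on days 15 and 16. Its lowest center sample of days 11 and 13 was at 4.69. The symbol TGM3 rests on a protein match, and whether the entry is TGM3 was not tested. Day 0 skin was at 8.12, 8.72 and 9.19, the center of days 1 to 4 at 6.16, 9.79 and 11.61, and the edge at 8.39, 9.16 and 11.51. Edge and center overlapped over most of their range. The edge minus center difference was -0.47 ± 0.30 on days 1 to 4 (adjusted p = 0.164 in edgeR), -0.59 ± 0.30 on days 5 to 9 (0.083), 0.09 ± 0.42 on days 11 and 13 (0.889), 0.41 ± 0.59 on days 15 and 16 (0.629) and 0.27 ± 0.59 on days 19 and 21 (0.977). TGM3 was higher at the edge in 34 of 72 wounds and lower in 38. The only day on which it passed the test was day 9, when it was lower at the edge by 1.79 on the log2 scale (adjusted p = 0.0165). Without the 7 libraries that stood apart, it was also lower at the edge on days 5 to 9, by 0.69 (adjusted p = 0.0405).

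The difference between TGM3 and the others was tested itself. TGM3 was set apart by its values in these same wounds, so the outcome was largely fixed in advance. The p-values below are therefore no independent support. For each wound of days 1 to 9 the edge minus center difference of TGM3 was taken from that of another gene, and the 48 wounds were averaged within the 6 animals. The means ranged from 3.91 ± 0.45 (SD, n = 6 animals) for TGM1 to 6.46 ± 0.57 for SPINK5 on the log2(1 + CPM) scale, and every animal was above 0 for each of the 9 genes. The exact two-sided sign-flip permutation test gave p = 0.0312 for each, the smallest that 6 animals allow, and 0.0312 after Benjamini-Hochberg adjustment over the 9 tests.

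Per length, TGM3 was the highest of the 12 entries in the center on day 7, with a median of 285.6 FPKM beside 0.54 for TGM1 and 0.46 for TGM5. On day 3 the center median of TGM3 was 535.7 FPKM, with a range of 95.3 to 1097 over 6 samples. On day 21 the 3 center samples had a median of 27.9 FPKM for TGM3, 25.7 for TGM5 and 10.5 for TGM1. The center samples of TGM3 also scattered widely within a day. Over the 10 days with 6 wounds, the SD of its center samples lay between 1.08 and 1.81 on the log2(1 + CPM) scale, with a median of 1.40, while its edge samples had a median SD of 0.73.

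**Figure D2:**
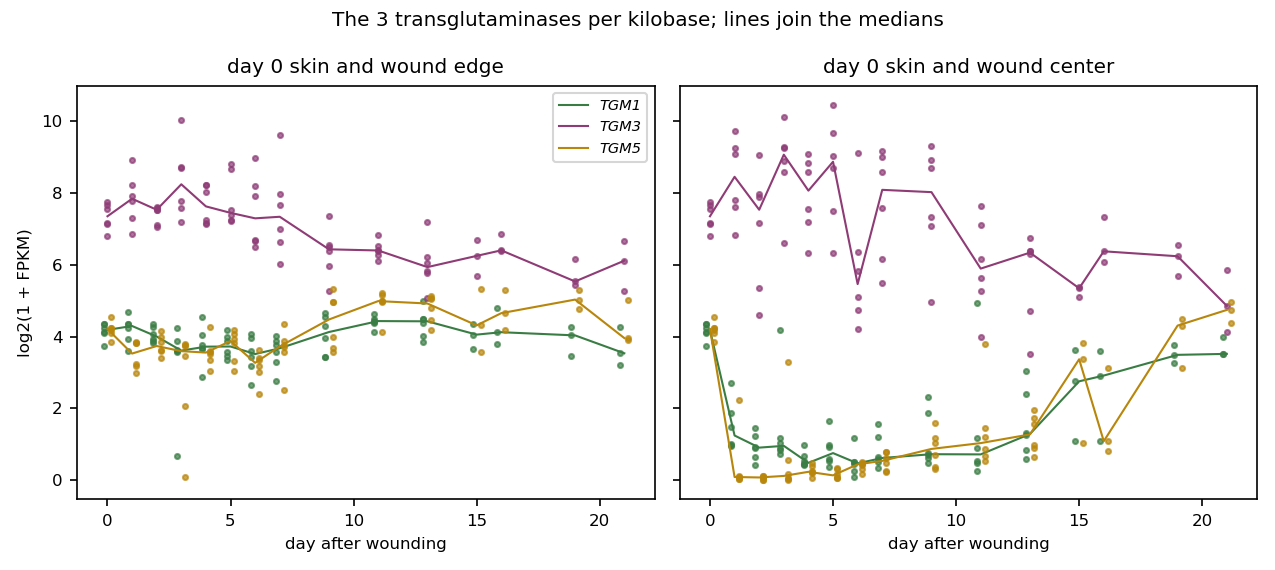
Deposited FPKM of TGM1, TGM3 and TGM5, as log2(1 + FPKM), against the day after wounding, for day 0 skin and wound edge on the left and day 0 skin and wound center on the right, with 1 point per sample and lines through the medians. In the center TGM3 lies far above the other transglutaminases up to day 13, and its median goes from 535.7 FPKM on day 3 to 27.9 FPKM on day 21.

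SPINK5 encodes LEKTI, which inhibits the kallikreins that loosen the cornified cells. It was at 9.10, 9.54 and 10.18 in day 0 skin. On days 1 to 4 it was at 0.12, 1.57 and 7.85 in the center and at 2.53, 8.40 and 9.31 at the edge. On days 5 to 9 the 2 locations did not overlap, with at most 3.31 in the center and at least 6.03 at the edge. SPINK5 was higher at the edge by 5.35 ± 0.53 on days 1 to 4 (adjusted p = 1.88e-16 in edgeR) and 7.23 ± 0.58 on days 5 to 9 (8.02e-22).

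CASP14 is a protease of the cornifying cell that helps to break down filaggrin. On days 1 to 4 the center was at 0.00, 0.15 and 5.25 and the edge at 0.00, 5.85 and 6.72, beside 4.65, 5.97 and 6.70 in day 0 skin. In 14 of the 24 center samples it had 3 counts or fewer, and in 18 of 24 on days 5 to 9. CASP14 was higher at the edge by 6.16 ± 0.57 on days 1 to 4 (adjusted p = 3e-18 in edgeR) and 7.90 ± 0.62 on days 5 to 9 (9.98e-23). Entry ENSSSCG00025042270 stayed between 2.97 and 5.56 in all samples of every phase after day 0 and did not share this pattern.

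**Figure D3:**
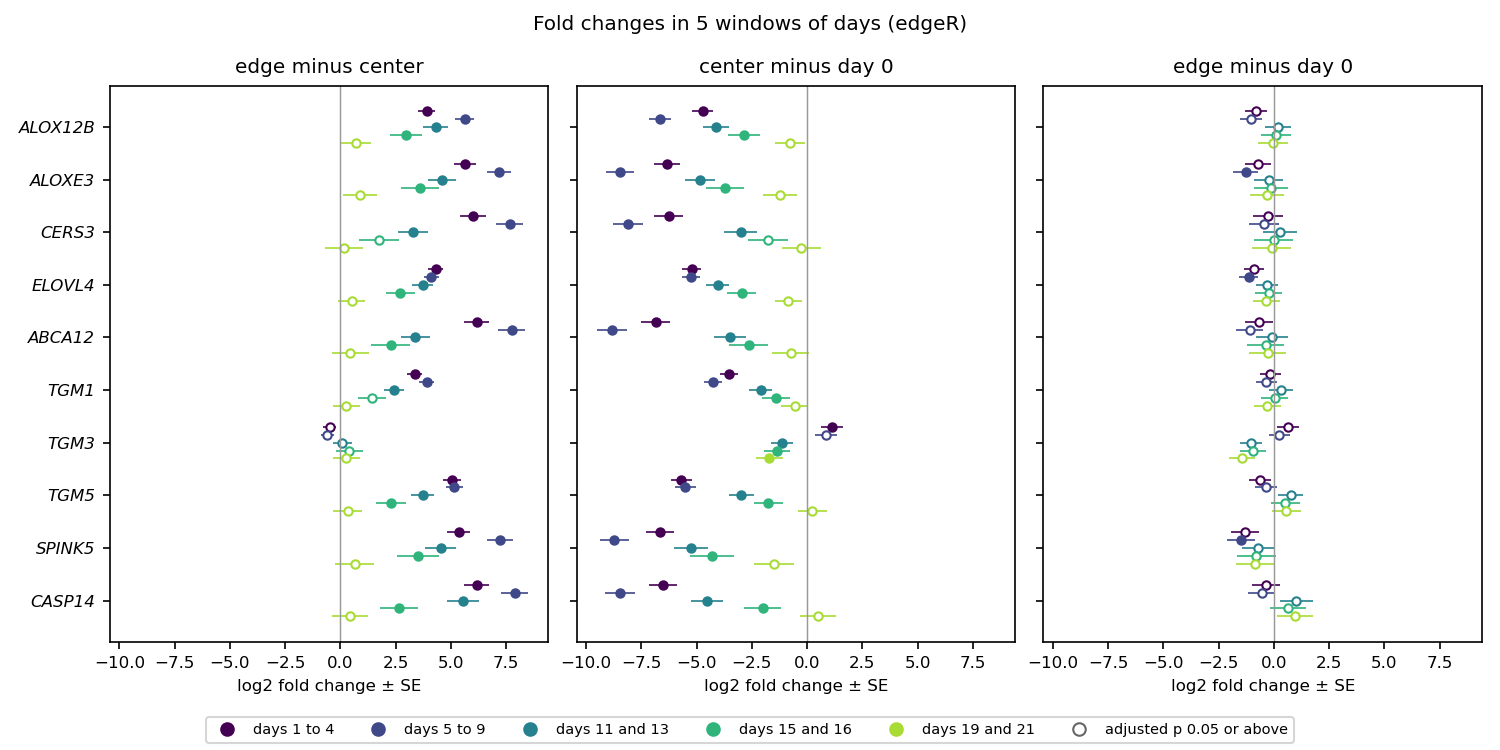
Differences of each of the 10 genes in the 5 phases, for edge minus center, center minus day 0 and edge minus day 0, as log2 fold change from edgeR with its standard error as the bar and open points where the adjusted p is 0.05 or above. In the edge minus center panel the 9 genes other than TGM3 lie between 2.43 and 7.90 up to days 11 and 13 and between 0.16 and 0.90 on days 19 and 21, while TGM3 lies between -0.59 and 0.41.

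Against the intact skin of day 0, the same 9 genes were lower in the center. On days 1 to 4 all 9 were lower, beside 34.1% of all genes, by 3.53 (TGM1) to 6.85 (ABCA12) on the log2 scale. TGM3 was higher than in day 0 skin in this phase, by 1.12 ± 0.51 with adjusted p = 0.0443 in edgeR, and so was ENSSSCG00025042270, beside 34.3% of all genes. The call for TGM3 was lost without the 7 libraries that stood apart (adjusted p = 0.0554), without a filter on low counts (0.0566) and with the animal as a block (0.0525). On days 5 to 9 the 9 genes were lower, beside 36.6%, by 4.26 (TGM1) to 8.84 (ABCA12), and ENSSSCG00025042270 was higher, beside 34.2%. TGM3 was then at 0.84 ± 0.50 (adjusted p = 0.126). On days 11 and 13 all 10 genes were lower, beside 32.8%, with TGM3 down by 1.13 ± 0.50 (adjusted p = 0.0401, and 0.059 without a filter on low counts), and ENSSSCG00025042270 was higher, beside 30.4%.

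The decline of TGM3 in the center was tested after its values were seen. Between days 1 to 4 and days 11 and 13 it fell by 2.25 ± 0.41 on the log2 scale (adjusted p = 1.23e-06 in edgeR), the only member that was lower, beside 26.4% of all genes. Between days 1 to 4 and days 19 and 21 it fell by 2.83 ± 0.58 (1.33e-05), and ENSSSCG00025042270 fell by 0.38 ± 0.17 (0.0496), beside 28.1%. The call for ENSSSCG00025042270 was lost in DESeq2 (adjusted p = 0.069), without a filter on low counts (0.113) and without any 1 of 4 late wounds (0.0988 to 0.197). At the edge TGM3 fell by 2.09 ± 0.55 between days 1 to 4 and days 19 and 21 (adjusted p = 0.00109), the only member that was lower, beside 21.1%. TGM5 was the only member that was higher at the edge over that interval, by 1.20 ± 0.48 (adjusted p = 0.0359), beside 17.3%. This call for TGM5 was lost in DESeq2 (adjusted p = 0.053), with library size in place of TMM scaling (0.112) and without a filter on low counts (0.0525). It was also lost without the day 19 wound of animal 1326 (0.0606) or 1327 (0.0818), or the day 21 wound of animal 1323 (0.156).

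The other 9 genes came back in the center late. Between days 11 and 13 and days 19 and 21, all 9 were higher, beside 15.5% of all genes, by 1.54 ± 0.51 (TGM1, adjusted p = 0.0145 in edgeR) to 5.04 ± 0.74 (CASP14, 4.62e-08). No member was lower by edgeR or DESeq2, and none was before adjustment, beside 15.9% of all genes. Compared with days 1 to 4, days 19 and 21 had 9 genes higher in the center, beside 26.3%, by 2.97 (TGM1) to 7.02 (CASP14).

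The center of days 11 and 13 was compared with that of days 1 to 4 as well. In it 8 genes were higher, beside 26.5%, and ALOX12B was at 0.61 ± 0.43 (adjusted p = 0.238). This number changed with the libraries that stood apart, since without 7 of them 2 genes were higher (TGM5 and ELOVL4) and without 8 of them 6. SPINK5 was not called with the animal as a block (adjusted p = 0.073) or with library size in place of TMM scaling (0.053), and neither SPINK5 (0.0779) nor ALOXE3 (0.0548) with the wounds of an animal summed. The 6 genes without 8 libraries were TGM5, ELOVL4, CERS3, ABCA12, CASP14 and ALOXE3, while TGM1 was at 0.52 (adjusted p = 0.119), SPINK5 at 0.45 (0.434) and ALOX12B at -0.14 (0.766). The center sample of animal 1323 wound C on day 11 was at 6.58 for CERS3 and 7.73 for TGM1, and the other 5 center samples of that day were at 0.70 or less for CERS3 and 3.47 or less for TGM1. On day 13 animal 1326 wound J was at 4.80 for CERS3 and animal 1328 wound C at 4.74. The others of that day were at 2.76, 0.60, 0.52 and 0.25.

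On days 15 and 16 the center differed from wound to wound. CERS3 was at 6.14, 5.38 and 2.10 in animals 1323, 1324 and 1325 on day 15 and at 5.79, 0.15 and 3.86 in animals 1326, 1327 and 1328 on day 16. SPINK5 was at 6.19, 6.70 and 1.18 in the first 3 and at 5.88, 0.36 and 3.37 in the second. CASP14 was at 5.34, 4.99 and 0.43 and at 4.62, 0.08 and 1.50. The wound of animal 1327 was the lowest in each, and it was at 0.00 for ABCA12, while TGM3 was at 8.48, the highest of the 6. Against day 0, 9 genes were lower in the center in this phase, beside 28.9% of all genes, and ENSSSCG00025042270 was higher, beside 27.3%. The gene that did not pass was CERS3, at -1.77 ± 0.91 (adjusted p = 0.0868 in edgeR), and it passed without the 7 libraries (0.0166). Calls for TGM1, TGM3, TGM5 and CASP14 against day 0, and for ABCA12 and CASP14 against the edge, were lost when single wounds were left out. Without a filter on low counts, the calls against day 0 were lost for TGM1 (adjusted p = 0.0713 in edgeR), TGM3 (0.0703) and CASP14 (0.0533). The call for ABCA12 against the edge was lost there too (0.0532). CASP14 against day 0 was also lost in DESeq2 (adjusted p = 0.0574). The call of ENSSSCG00025042270 against the edge was lost in each of the 6 fits that leave out a wound of these days (adjusted p = 0.05 to 0.1) and with library size in place of TMM scaling (0.0774).

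Whether edge and center differed less on these days than before was not tested. The 7 genes higher at the edge on days 15 and 16 ranged from 2.27 ± 0.68 (TGM5) to 3.61 ± 0.85 (ALOXE3) on the log2 scale. CERS3 was at 1.75 ± 0.91 (adjusted p = 0.124 in edgeR) and TGM1 at 1.43 ± 0.63 (0.0657). With the wound as a block, CERS3 was higher at the edge by 2.52 (adjusted p = 0.0128) and TGM1 by 1.81 (0.0105). Both genes also passed in edgeR without the 7 libraries, with adjusted p = 0.0281 for CERS3 and 0.00864 for TGM1. TGM1 passed in DESeq2 as well (adjusted p = 0.0414).

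On days 19 and 21 most center samples were near the edge in the 9 genes other than TGM3. ALOX12B was at 5.88, 2.92 and 6.00 in animals 1326, 1327 and 1328 on day 19 and at 6.49, 6.09 and 6.33 in animals 1323, 1324 and 1325 on day 21. SPINK5 was at 7.30, 5.03 and 8.37 and at 8.83, 8.34 and 8.35 in the same samples, and CASP14 at 6.69, 3.63 and 5.59 and at 7.61, 6.65 and 5.87. The wound of animal 1327 was the lowest again. Against day 0 the only gene called lower was TGM3, by 1.72 ± 0.61 (adjusted p = 0.0158 in edgeR), beside 22.9% of all genes, and ENSSSCG00025042270 was the only member higher, by 0.58 ± 0.21 (0.0166), beside 22%. That last call was lost with library size in place of TMM scaling (0.41, adjusted p = 0.129) and without the day 21 wound of animal 1324 (0.46, 0.0781). The other 9 genes ranged from -1.50 ± 0.89 (SPINK5, adjusted p = 0.166) to 0.51 ± 0.82 (CASP14, 0.643). Without 8 libraries ALOXE3 (-1.22, adjusted p = 0.0287) and SPINK5 (-1.50, 0.0427) were lower as well. The standard errors of these 9 differences were 0.61 to 0.89, so a missed threshold does not show that the center equalled intact skin.

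**Figure D4:**
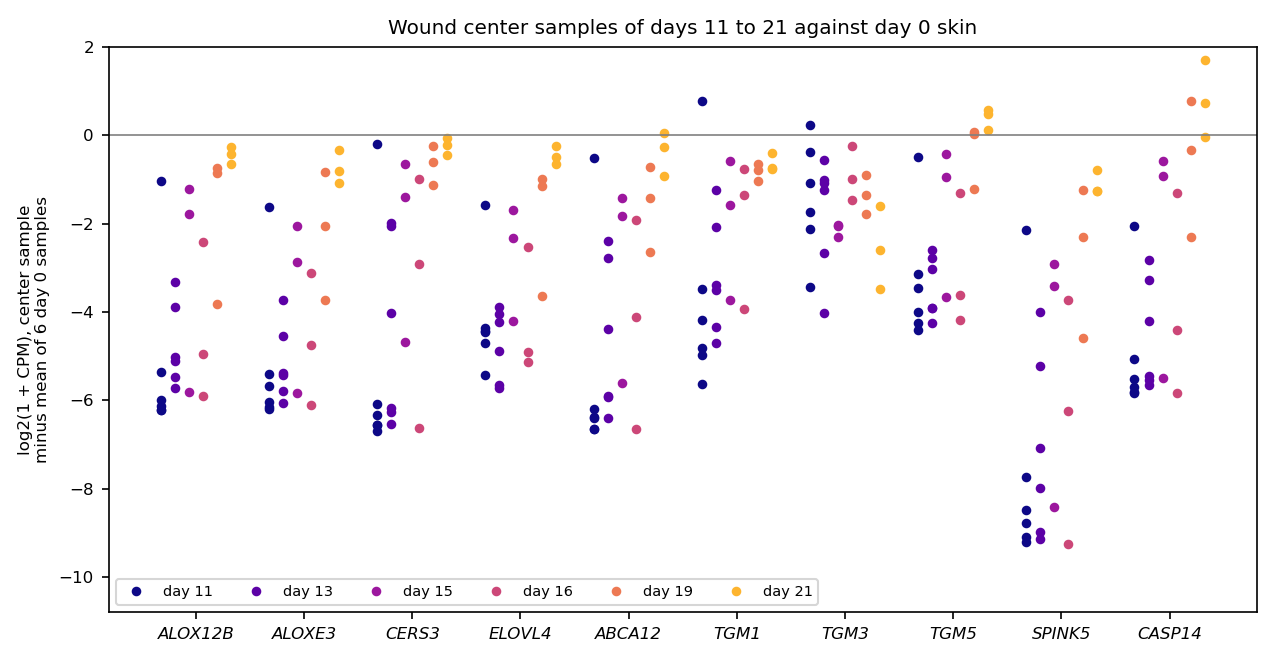
Level of each gene in the 24 center samples of days 11 to 21 minus the mean of the 6 day 0 samples, as a difference of log2(1 + CPM), with 1 point per sample coloured by day. Samples of day 21 lie near 0 for 9 genes, from -1.27 to 1.70, and between -3.47 and -1.60 for TGM3.

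The genes differed in how near the late center was to the day 0 skin of the same animal. The mean over 2 center samples of days 15 to 21 per animal was -3.78 ± 1.99 (SD, n = 6 animals) for SPINK5, -2.80 ± 1.24 for ALOXE3, -2.40 ± 1.59 for ALOX12B, -2.33 ± 1.32 for ELOVL4, -2.29 ± 1.65 for ABCA12, -1.73 ± 1.07 for TGM3, -1.66 ± 1.49 for CERS3, -1.50 ± 2.03 for CASP14, -1.36 ± 0.75 for TGM1 and -1.17 ± 1.25 for TGM5. In 6 of 6 animals CERS3 was nearer to its day 0 level than ALOX12B, ALOXE3, ABCA12 and SPINK5 were. TGM1 was likewise nearer than ALOX12B, ALOXE3, ELOVL4 and SPINK5 in 6 of 6. CERS3 was nearer than TGM1 in 3 animals. Relative to day 0, CERS3 was higher than TGM5 in 1 animal and than CASP14 in 3. On this scale no level is below 0, so a shortfall cannot exceed the gene's own day 0 level. That level was highest for SPINK5 (mean of 9.61) and lowest for TGM5 (5.77), and ABCA12 reached 0.00 in a center sample of days 15 and 16. The order of the genes thus depends in part on their day 0 levels. These values are given as a description, since the pattern was noticed in them.

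The edge stayed closer to intact skin. On days 1 to 4, 0 of the 10 genes were called lower than in day 0 skin by edgeR, beside 24.8% of all genes, with 2 below 0.05 before adjustment and 0 called by DESeq2. Entry ENSSSCG00025042270 was higher, by 0.48 ± 0.17 (adjusted p = 0.0128), beside 25.6%. On days 5 to 9, 3 genes were lower, beside 26.8%: ALOXE3 by 1.28 ± 0.56 (adjusted p = 0.0422), ELOVL4 by 1.15 ± 0.44 (0.0213) and SPINK5 by 1.50 ± 0.63 (0.037). The call for ALOXE3 was lost in DESeq2 (adjusted p = 0.0818) and without a filter on low counts (0.0576). No member was higher there by edgeR or DESeq2, and none was before adjustment, beside 28.3%. The number that were lower changed with the libraries used. With the animal as a block ELOVL4 was also lower on days 1 to 4 (adjusted p = 0.0453). Without 7 libraries, ELOVL4 and SPINK5 were also lower on days 1 to 4, and ALOX12B and ABCA12 on days 5 to 9. Without 8 libraries ALOX12B was lower on days 1 to 4 too, by 0.75 (adjusted p = 0.0484 in edgeR).

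From day 11 on, edgeR called 0 members at the edge different from day 0, but TGM3 was called lower in several alternatives. The shares of all genes higher and lower were 23.8% and 19.5% on days 11 and 13, 13.3% and 8.26% on days 15 and 16, and 18.2% and 16.3% on days 19 and 21. Before adjustment 1 member was lower on days 11 and 13, 0 members differed on days 15 and 16, and 1 was higher and 1 lower on days 19 and 21. DESeq2 called 0, 0 and 1, the last being TGM3 on days 19 and 21, with -1.47 (adjusted p = 0.0293) beside -1.44 ± 0.61 (0.0537) in edgeR. With the animal as a block TGM3 was lower at the edge on days 11 and 13 (adjusted p = 0.0477) and on days 19 and 21 (0.0304). It was also lower in both phases with library size in place of TMM scaling (0.0358 and 0.0204). The same held with the wounds of an animal summed (0.0466 and 0.00733). On days 19 and 21 it was lower without 7 libraries (0.0418) and without 8 (0.0397) too. Between phases the edge was also compared with itself. From days 1 to 4 to days 5 to 9, 0 members were called higher, beside 13.1%, or lower, beside 9.59%. From days 11 and 13 to days 19 and 21, 0 were called higher, beside 2.34%, or lower, beside 2.48%. In both comparisons 0 members were below 0.05 before adjustment and DESeq2 called 0.

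The shrinking of the edge to center difference was tested as an interaction. Between days 1 to 4 and days 19 and 21 it became smaller for 9 genes, beside 10.7% of all genes, and for 0 members larger, beside 6.35%, with 0 members in that direction before adjustment or by DESeq2. The change ranged from -3.10 ± 0.72 on the log2 scale (TGM1, adjusted p = 0.000661 in edgeR) to -5.83 ± 1.15 (CERS3, 7.22e-05). TGM3 was at 0.75 ± 0.67 (adjusted p = 0.504).

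Over the means of the 29 states of day and location, the 9 genes followed each other closely, with Pearson's r of log2(1 + CPM) from 0.951 to 0.996 between pairs. TGM3 had r from -0.43 to -0.21 with them. The states share libraries and most of the contrast between edge and center, so these coefficients describe the data and carry no test. Within the 14 edge states, pairs of the 9 genes had r from 0.559 (TGM1 with TGM5) to 0.956. TGM3 had r from -0.883 (with TGM5) to -0.208 (with TGM1) there. Within the 14 center states, pairs had r from 0.875 to 0.995 and TGM3 from -0.743 to -0.509. These values are a description too. Each gene also had counterparts outside the list among 13518 genes searched. The 3 nearest were ESYT3, EPS8L1 and SDR9C7 for ALOX12B (r of 0.994 to 0.995) and KPRP, XP32 and SPTLC3 for ALOXE3 (0.996 each). They were NIPAL4, LYPD5 and PNPLA1 for ELOVL4 (0.992 to 0.995), ESRP1, SARG and SGPP2 for CERS3 (0.998 each) and MPZL3, GSDMA and TMPRSS13 for ABCA12 (0.996 to 0.997). CBLC, FAT2 and EPS8L2 were nearest to TGM1 (0.988 to 0.99), EPHB6, NCCRP1 and SERPINB13 to TGM5 (0.988 to 0.989), POF1B, RAB27B and SPTLC3 to SPINK5 (0.995 to 0.996) and TEDDM1A, NCCRP1 and DMKN to CASP14 (0.993 to 0.995). TGM3 had HCAR2 (0.933), TOX4 (0.902) and SP3 (0.896). Entry ENSSSCG00025042270 had TRIM38, TLR6 and TLR1 (0.92 to 0.922).

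Other genes of the barrier were compared between edge and center on days 1 to 4, where 29% of all genes were higher and 30.3% lower at the edge. All 10 tested entries for proteins of the cornified envelope were higher at the edge, with a median difference of 5.42 on the log2 scale. They cover only 9 of the 19 symbols listed for this envelope, since the others were not found by symbol. The largest were FLG2, a filaggrin-like protein with 2 entries at 7.35 ± 0.60 and 6.39 ± 0.56, the keratinocyte protein KPRP at 5.98 ± 0.58 and corneodesmosin CDSN at 5.56 ± 0.60. Of 26 entries for ceramide and fatty acid metabolism, 18 were higher and 5 lower, with a median of 1.67, led by the serine palmitoyltransferase subunit SPTLC3 at 6.26 ± 0.56, the lipase LIPN at 5.82 ± 0.57, the fatty acid hydroxylase FA2H at 5.71 ± 0.65 and PNPLA1, which makes acylceramides, at 5.46 ± 0.51. Of 21 entries for barrier proteases and their inhibitors, 18 were higher and 3 lower, with a median of 4.79. Here the kallikreins KLK7 (5.56 ± 0.56), KLK6 (5.53 ± 0.68) and KLK5 (5.24 ± 0.49) and the inhibitor SPINK6 (5.39 ± 0.67) led.

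Of 15 regulators of epidermal differentiation, 13 were higher and 0 lower, by edgeR, by DESeq2 and before adjustment alike, with a median of 3.41. The transcription factors ZNF750 (5.94 ± 0.54), POU2F3 (5.52 ± 0.47) and TP63 (5.48 ± 0.56) led. On days 19 and 21, 0 entries of these 4 lists differed between edge and center by edgeR or DESeq2. Of all genes, edgeR called only 0.0558% higher and 0.0167% lower there. Before adjustment 4 entries were higher and 1 lower. Against day 0, the late center had 0 cornified envelope entries that differed (1 lower before adjustment and 0 by DESeq2), beside 22.9% of all genes lower and 22% higher. Of the 26 ceramide and fatty acid entries 8 were lower and 3 higher. FA2H was down by 2.65 ± 1.02 (adjusted p = 0.0261 in edgeR). Of the 21 protease entries 4 were higher and 4 lower, near the shares over all genes, with SPINK6 down by 2.62 ± 1.03 (0.0307). Of the regulators 1 was higher and 5 lower, with POU2F3 down by 2.60 ± 0.79 (0.00437).

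Markers of cell types were compared in the same way. In bulk tissue, fewer cells of a type and less RNA per cell cannot be told apart. Suprabasal keratinocyte markers were higher at the edge on days 1 to 4 in 5 of 5, beside 29% of all genes. Their summed levels were 6.74 to 19350 CPM in the center and 13.9 to 41530 at the edge. Basal keratinocyte markers were higher in 6 of 6, with 121.8 to 16350 CPM in the center and 242.4 to 37080 at the edge. The summed level of both lists was above 0 in every sample. On days 15 and 16, 5 of 5 suprabasal markers were lower in the center than in day 0 skin, beside 28.9% of all genes. The median difference was 4.35 on the log2 scale. None of 6 basal markers was, by edgeR, DESeq2 or before adjustment, with a median of -0.68. On days 19 and 21, 0 markers of either list differed from day 0 in the center by edgeR, by DESeq2 or before adjustment. Of all genes, edgeR called 22% higher and 22.9% lower there. The part of these cells in the results above was not tested.

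Markers of hair follicles and sebaceous glands did not return with them. Hair follicle markers were lower in the center than in day 0 skin in 9 of 9 entries on days 19 and 21. Their median difference was -11.7, with at most 7.97 CPM summed. Sebaceous gland markers were lower in 3 of 4. The share of all genes lower in this comparison was 22.9%. In day 0 skin the hair follicle markers summed to between 27.6 and 15020 CPM, with animal 1324 the lowest. TGM3 was not among the markers. Its correlation with the mean marker level over the 29 states was 0.635 for adipocytes, 0.361 for leukocytes and -0.629 for fibroblasts, given as a description. It was 0.128 for hair follicles, 0.291 for sebaceous glands, 0.287 for skeletal muscle and 0.155 for endothelium. For suprabasal and basal keratinocytes it was -0.241 and -0.269.

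The other marker lists on days 1 to 4 were lower at the edge than in the center in 4 of 7 fibroblast, 4 of 5 endothelium, 3 of 6 leukocyte, 7 of 7 skeletal muscle and 4 of 4 adipocyte entries, beside 30.3% of all genes, and 0 of these were higher by edgeR, by DESeq2 or before adjustment. Hair follicle markers were higher at the edge in 9 of 9 and sebaceous gland markers in 3 of 4, with 1 lower. Of all genes 29% were higher at the edge in this phase. Leukocyte markers summed to 351.6 to 1632 CPM in the center of days 1 to 4 and 96.7 to 178.2 CPM in day 0 skin. Skeletal muscle markers reached 67360 CPM in the center of days 1 to 4, against a median of 4.47. The list of wound keratinocyte markers had 1 of its 4 genes in the table, KRT6C, and is void. KRT6C was higher at the edge on days 1 to 4 by 5.72 ± 0.63 and in the center of days 19 and 21 than in day 0 skin by 3.39 ± 1.12 (adjusted p = 0.00901 in edgeR).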

How the data were processed

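RNA was measured in 150 samples from 6 pigs. According to the methods, poly-A RNA was sequenced as paired reads by a provider, who dropped reads of low quality, aligned those left and counted reads for each gene. Aligner, genome build and use of strand are not given in the sources used here. The authors deposited raw gene counts. The FPKM values deposited beside them equal count over gene length and total, times a factor per sample of 0.845 to 1.307. Totals of 13133379 to 24895572 counts set the precision, and a floor of 3 counts covers counting error only.

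Groups came from the day, location, animal and wound that each label gives. The members and lists were chosen with earlier results of these data known. Named are the 10 members, the 3 genes (mean CPM of at least 1) whose state means correlate best with each, and the 4 largest changes of each pathway list between edge and center on days 1 to 4. One gene that this rule names is not reported here. All samples entered 1 edgeR model (version 4.0.16, R 4.3.3) with a mean per state of day and location, TMM scaling, the filterByExpr filter (count of 10, total of 15), quasi-likelihood tests and Benjamini-Hochberg adjusted p below 0.05 over 17916 genes. A phase is the mean of its states. Wounds of an animal count as separate samples, so p-values measure the spread between wounds. Levels are log2(1 + CPM).

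Edge and center of a wound form a pair by their labels, and deviated together from their state means (mean r of 0.27 over 14081 genes, above 0 in 64 of 72 wounds and above 0.1 in 58). Animals recur from day to day. A replicate block of wound or animal was an alternative. The others were library size in place of TMM, DESeq2 1.42.0, no filter, summed wounds, 7 libraries left out, single days fitted alone, and each late wound left out. Leaving out 8 libraries, 1 entry per symbol, and 3 contrasts of later with earlier phases were added after seeing the data. The fits were tested on simulated counts. Python 3.11.15 (numpy 2.4.6, pandas 2.3.3, scipy 1.17.1) gave levels, correlations and permutations. No sequences were used here.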

Additional observations from a re-analysis of the deposited data

Results flagged for a closer look

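Within states of 6 samples, single samples far from the others were looked for in 231 combinations of 21 states and 11 entries by Dixon's ratio. They were found in 44 and lay in 14 libraries. Chance gives 11.55 if values are normally distributed, and many center samples held few counts, so that figure is only a guide. Some flags lay near the floor, such as CASP14 in the center on day 6 at 0.86 beside at most 0.17. ABCA12 in the center on day 9 was at 0.78 beside at most 0.28. The center sample of animal 1325 wound A on day 1 was the highest of its state and apart in 8 entries, with CERS3 at 5.61 beside at most 0.96 in the others on the log2(1 + CPM) scale. The center sample of animal 1324 wound G on day 3 was high in 7, with TGM1 at 7.13 beside at most 3.41. The edge sample of animal 1325 wound G on day 3 was low in 6, with CERS3 at 0.00 beside at least 5.39. The center sample of animal 1323 wound C on day 11 was high in 9, with ABCA12 at 6.12 beside at most 0.46. The mean level of basal keratinocyte markers in these 4 libraries was 9.01, 9.80, 4.47 and 10.18 in the same order, beside medians of 4.47 in the center and 10.3 at the edge on days 1 to 4, and the part of these cells was not tested. The edge sample of animal 1323 wound H on day 7 was low in 4 entries and the center sample of animal 1325 wound H on day 7 high in 2. The other samples stood apart in 1 entry each, with Dixon ratios of 0.688 for ELOVL4 in day 0 skin of animal 1326, 0.754 for SPINK5 in the center on day 4 (animal 1326 wound G), 0.649 for CERS3 on day 5 (1323 B), 0.805 for CASP14 on day 6 (1327 B), 0.761 for CASP14 on day 9 (1326 E), 0.64 for ABCA12 on day 9 (1326 H), 0.661 for CASP14 entry ENSSSCG00025042270 on day 11 (1324 C), and 0.675 for TGM5 at the edge on day 11 (1324 C).

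The edge minus center difference was smaller late than early by the interaction test in 9 genes, with changes on the log2 scale of -3.20 for ALOX12B, -4.72 for ALOXE3, -5.83 for CERS3, -3.80 for ELOVL4, -5.72 for ABCA12, -3.10 for TGM1, -4.72 for TGM5, -4.69 for SPINK5 and -5.72 for CASP14.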

How the results depend on the processing

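Of the single values under the alternatives, 1640 kept their direction and their side of the threshold, 63 lost the call, 40 gained it and 4 reversed. The number of members lower at the edge than on day 0, 3 over the 5 phases, was 5 with library size in place of TMM, 5 with the wounds of an animal summed, 8 without 7 libraries, 9 without 8 libraries and 6 with the animal as replicate block. The number higher, 1, was 3 with the wounds summed and 0 with 1 entry per symbol. Leaving out each late wound in turn gave 32 to 35 members higher at the edge than in the center over the phases (34 as reported), 34 to 38 lower in the center than on day 0 (38), 85 to 91 higher at the edge by day (91) and 3 to 4 lower at the edge than on day 0 (3). These counts combine the refitted late comparisons with the values of the other phases. Reversed were CERS3, edge minus center on days 19 and 21, at -0.052 without the wound of animal 1327 on day 19 and up to 0.326 without that of animal 1326 (0.16 as reported), and, for the center of days 11 and 13 minus days 1 to 4, ALOX12B at -0.67 without 7 libraries and -0.14 without 8 (0.61 as reported) and SPINK5 at -0.36 without 7 (1.42 as reported). The cause was not tested. With the wound as replicate block there were 36 members higher at the edge by phase, 103 by day and 9 in the interaction. Beyond the calls named above for CERS3, TGM1, TGM3, ELOVL4 and SPINK5, and those on single days, the wound or animal block changed no call. Each day fitted alone gave 77 members higher by day. Depth limits what the center shows, since CASP14, ABCA12, CERS3 and ALOXE3 had 3 counts or fewer in many center samples.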
